A study of Mus musculus with 16 samples.

Results

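The genes described here are the replication-dependent histone genes, taken as every row of the deposited table whose gene name begins with Hist1h, Hist2h, Hist3h or Hist4h. There were 70 of them among 51912 listed genes. H1f0, whose name resembles the newer naming of this family, encodes a replication-independent linker histone and was kept with the replication-independent histones. The 70 genes comprised 6 of class H1, 20 of class H2A, 19 of class H2B, 12 of class H3 and 13 of class H4, and 3 of them (Hist1h2aj, Hist1h2al and Hist3h2bb-ps) are annotated as pseudogenes. The values came from bulk RNAseq of germinal centre (GC) B cells from spleens of male and female cMyc gfp/gfp mice, in which the cMyc locus itself encodes cMyc fused to GFP, at 6 to 15 weeks of age. All mice had received sheep red blood cells (SRBCs) intraperitoneally, and all cells were sorted 7 d later as B220+ CD38low CD95+ cMycGFP+ cells after depletion of CD43+ cells. The cMyc+prePB subpopulation (prePB, precursors of plasmablasts) was CD69hi. The other subpopulations were cMyc+early (CD23hi CD21/35hi), cMyc+lateCD23int (CD23int CD21/35int) and cMyc+lateCD23lo (CD23lo CD21/35lo). In the paper's gating these were light zone cells, left after cMyc+prePB cells and CXCR4hi CD86lo dark zone cells had been removed. Each subpopulation had 4 libraries, made from total RNA with a low-input kit. There was no cMyc-negative or unimmunized group, and each gate pools cells at different points of the cell cycle.

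Replication-dependent histones are made in large amounts in S phase to package newly copied DNA. Their mRNAs come from clustered, mostly intronless genes and, alone among animal mRNAs, usually end in a conserved stem-loop instead of a poly(A) tail. SLBP binds that stem-loop and accompanies the mRNA from 3′ processing to translation and decay, and NPAT drives transcription of the clusters when cyclin E and CDK2 are active. GC B cells divide rapidly, and cMyc marks those that have been positively selected.

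Recovered reads per library ranged from 19812080 to 25795815, and the histone genes took between 0.108% and 0.197% of them. The GC B cell genes Bcl6 (the GC master regulator), Mef2b (a transcription factor that activates Bcl6) and S1pr2 (a receptor that confines cells to the GC) were present in every library, with overall means of 2286, 3720.3 and 764 normalized counts. Fcer2a, which encodes CD23, averaged 13398 ± 4314 normalized counts (SD, n = 4) in cMyc+early cells. In cMyc+lateCD23lo cells, the gate with the least CD23, it averaged 2274 ± 1172. Of 6 sorting marker genes, 3 had an unadjusted p under 0.05 in the limma F test over the 4 subpopulations. Of all genes tested, 10.2% did. The 3 were Fcer2a, Myc and Cr2, which encodes CD21/CD35. Fcer2a and Cr2 also had an adjusted p under 0.05 in that test, as did 0.408% of all genes. Between cMyc+early and cMyc+lateCD23int cells, 0 of 6 reached the unadjusted level by limma, beside 3.71% of all genes. Cd69 reached it in no comparison, so the CD69hi gate of cMyc+prePB cells is not checked by these RNA values. Replicate numbers in the labels do not say whether libraries came from separate animals, so the p-values measure the spread between these libraries, which may be partly technical. In bulk samples, fewer cells of a type (such as cells in S phase) and less RNA per cell cannot be told apart.

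The stem-loop is shown first because it is how these mRNAs end. A 16-base hairpin of this form, with 6-base arms and a 4-base loop, lay within 150 bases after the stop codon in 46 of the 52 histone genes with an annotated 3′ untranslated stretch of at least 16 bases (88.5%). It was found in 20 of 21017 other protein-coding genes with such a stretch (0.0952%), among them H2afx. The hairpins of 8 members whose values are described further on, chosen to show the H1, H2A, H2B and H4 classes, read 5′ to 3′ from the GENCODE vM21 transcripts (GRCm38) with the hairpin in capitals, were as follows.
Hist1h2ap, an H2A gene, chr13:21833026-21833049, minus strand: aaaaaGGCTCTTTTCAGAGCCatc
Hist1h2ae, an H2A gene, chr13:23570663-23570688, minus strand: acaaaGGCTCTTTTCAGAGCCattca
Hist3h2a, an H2A gene, chr11:58955167-58955192, plus strand: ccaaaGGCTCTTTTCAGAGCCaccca
Hist1h2bm, an H2B gene, chr13:21722501-21722526, plus strand: acaaaGGCTCTTTTCAGAGCCactaa
Hist3h2ba, an H2B gene, chr11:58949344-58949369, plus strand: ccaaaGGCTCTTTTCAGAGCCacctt
Hist1h1c, a linker histone gene, chr13:23739507-23739532, plus strand: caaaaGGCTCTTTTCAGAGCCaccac
Hist1h4i, an H4 gene, chr13:22040961-22040986, minus strand: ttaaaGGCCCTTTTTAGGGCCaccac
Hist2h4, an H4 gene, chr3:96262934-96262959, minus strand: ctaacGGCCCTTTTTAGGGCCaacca
The hairpin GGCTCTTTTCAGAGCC of the first 6 genes was shared by 26 members, 0 of them of class H4. The form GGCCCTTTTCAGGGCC was found in 7 members, all of class H4, and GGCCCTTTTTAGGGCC in Hist1h4i and Hist2h4. In 23 of the 46 members the annotated transcript ran more than 100 bases past the hairpin, and 16 of these 23 carried a poly(A) signal (AATAAA, or its variant with T in the second place) after it. Of the 23 whose model ended within 100 bases of the hairpin, 1 did. The model of Hist1h2ap ends 3 bases after its hairpin.

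The upstream sequences of members from different classes are shown because they carry elements known from histone gene promoters. RefSeq windows (GRCm38.p6) running from 250 bases before to 50 after the start were matched for 61 of the 70 members. In the 150 bases before the start printed here, capitals mark the CCAAT box, the TATA box (searched as TATAAA), the octamer ATTTGCAT, which is bound by the Pou2f1 product, and the H1 element AAACACA, each on either strand.
Hist1h1b, H1, chr13:21780626-21780775, minus strand: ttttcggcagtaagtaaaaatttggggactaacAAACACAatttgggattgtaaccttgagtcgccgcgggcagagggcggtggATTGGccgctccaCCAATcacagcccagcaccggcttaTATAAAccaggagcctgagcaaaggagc
Hist1h2ae, H2A, chr13:23571221-23571370, minus strand: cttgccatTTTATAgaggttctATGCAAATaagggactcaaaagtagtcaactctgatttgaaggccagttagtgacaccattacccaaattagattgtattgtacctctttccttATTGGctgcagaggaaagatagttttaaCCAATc
Hist1h2bm, H2B, chr13:21721894-21722043, plus strand: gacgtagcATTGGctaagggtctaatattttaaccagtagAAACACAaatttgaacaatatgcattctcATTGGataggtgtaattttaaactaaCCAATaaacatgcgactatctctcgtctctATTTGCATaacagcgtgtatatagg
Over the whole windows, CCAAT stood in 52 of 61 members (85.2%) and in 41.1% of all 27025 genes with a window. It was found in every matched member of the H1, H2A, H2B and H3 classes and in 3 of 12 H4 members. TATAAA was found in 57.4% of the members and 15.7% of all genes. The octamer stood in 7 of 17 H2A and 7 of 16 H2B members and in 0 of the H1, H3 and H4 members, against 1.97% of all genes. Windows of neighbouring members can overlap, as for Hist1h2ae and Hist1h2bg, so that a single site can be counted for both genes. The TATAAA and octamer marked for Hist1h2ae are the same bases as those of Hist1h2bg, an H2B gene on the opposite strand. Both sites lie nearer the start of Hist1h2bg and read in its direction, so they may not be elements of Hist1h2ae. A CCAAT box shared by the pair lies nearer the start of Hist1h2ae. The AAACACA element stood in 5 of 6 H1 members and 9 of all 61 (14.8%), against 8.22% of all genes. These are matches of letters and do not say which sites are bound in these cells.

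One gene, Hist1h2ap, made up most of the counted histone signal. How well the low-input kit captures RNA without a poly(A) tail was not tested. Counts may therefore not follow the amounts of histone mRNA, between genes or between subpopulations. Hist1h2ap (ENSMUSG00000094777, chr13:21833026-21833507, a single exon that encodes an H2A protein) took 87.6% to 93.8% of the summed histone count in each of the 16 libraries and ranked between 58 and 124 among all genes by count. Its mean of 29621 normalized counts was 47.8 times that of the next member, Hist1h1b, with 619. Per kilobase of exon it stood at 61454, against 833 for Hist1h1b, 426 for Hist1h2an, 418 for Hist1h4i and 411 for Hist1h2ae. Only 7.35% of its 75-base words were found in no other annotated transcript, and it shared most with Hist1h2ao, which was listed at a mean of 2.80. How reads that match several copies were assigned is not given in the sources used here, so the split between Hist1h2ap and near-identical H2A genes is uncertain. Gm44466, a gene annotated on the opposite strand of Hist1h2ap, was at 0.

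Levels of the remaining members spanned several orders of magnitude. Of the 70 genes, 22 were detected in all 16 libraries, 19 had more than 3 reads in every library, and 4 reached that in no library. Hist1h1t (a testis linker histone) and Hist1h2ba (a testis H2B) had 0 reads in all libraries, which allows up to 3 reads, or 2.48 to 3.23 normalized counts per library, by counting error alone. A mean of at least 10 normalized counts, the filter for testing, was passed by 44 members: 4 of class H1, 14 H2A, 12 H2B, 6 H3 and 8 H4. The 26 others held 0.272% of the summed histone count. Among the 70, 29 had under 50% unique words, 19 had at least 80% and 6 were unique throughout.

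**Figure D1:**
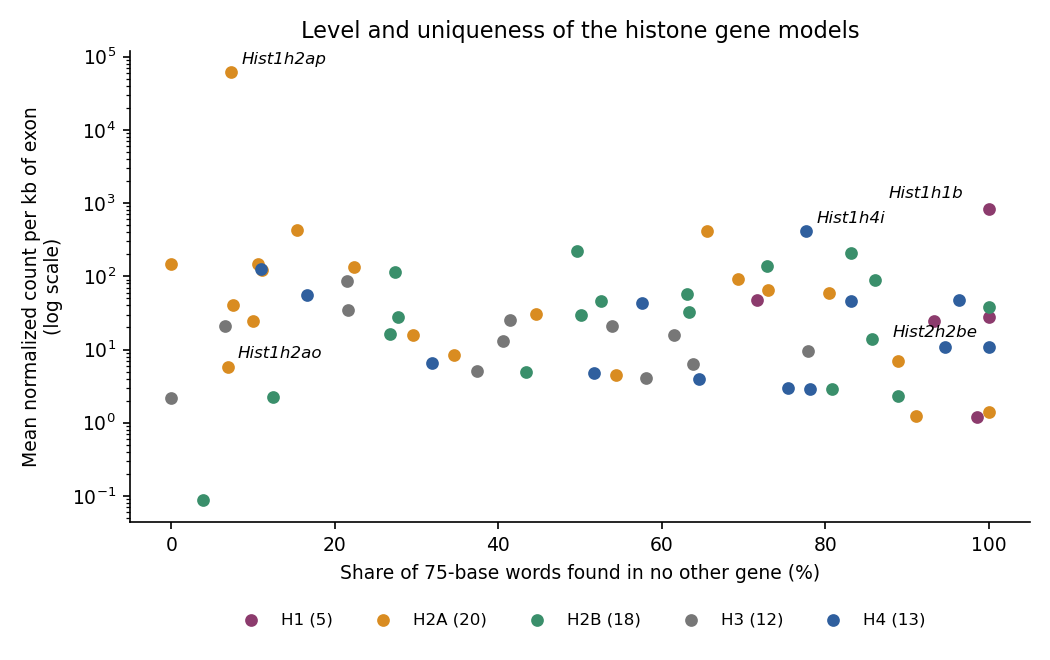
Mean normalized count per kilobase of exon over 16 libraries (log scale) of the 68 histone genes above 0, against the share of 75-base words of each gene model found in no other gene (%), coloured by class with the number of genes in brackets. Hist1h2ap lies at 61454 per kilobase with 7.35% unique words, and Hist1h1b, next by level, has 100% unique words.

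Summed over all 70 genes, the histone count was highest on average in cMyc+lateCD23lo cells. It was 33912, 23089, 28368 and 32413 normalized counts in the 4 cMyc+prePB libraries and 29606, 23820, 29935 and 31582 in cMyc+early. In cMyc+lateCD23int it was 49499, 33356, 22120.2 and 34682, and in cMyc+lateCD23lo 40234, 36554, 35557 and 41946. The 4 cMyc+lateCD23lo libraries lay above all cMyc+prePB and all cMyc+early libraries, whereas cMyc+lateCD23int held both the highest and the lowest value of the 16. The means (± SD, n = 4) were 38573 ± 3017 for cMyc+lateCD23lo, 34914 ± 11238 for cMyc+lateCD23int, 28735 ± 3389 for cMyc+early and 29445 ± 4842 for cMyc+prePB. On the log2 scale the sum was lower in cMyc+early than in cMyc+lateCD23lo by a mean difference of -0.43 and lower in cMyc+prePB by -0.40, and the difference between cMyc+prePB and cMyc+early was 0.03.

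Without the dominant gene, cMyc+lateCD23lo again had the highest mean, and the cMyc+prePB mean lay below the cMyc+early mean. The 69 genes other than Hist1h2ap summed to 2572, 2666, 2648 and 2739 in cMyc+prePB, to 3192, 2965, 3332 and 1945 in cMyc+early, to 4824, 3878, 2421 and 3166 in cMyc+lateCD23int, and to 4453, 4433, 3886 and 3618 in cMyc+lateCD23lo. Again every cMyc+lateCD23lo library lay above every cMyc+prePB and cMyc+early library, and cMyc+lateCD23int overlapped all others. The cMyc+prePB values spanned a narrow range, with an SD of 68.4 around a mean of 2656. Class sums within them varied more. Over the same libraries the H1 genes had 868, 711, 399 and 398, and the H2B genes 408, 525, 676 and 735. In CPM (recovered reads scaled to one total per library), the 69 genes had 112 to 127 in cMyc+prePB, 92.6 to 144 in cMyc+early, 118 to 192 in cMyc+lateCD23int and 154 to 205 in cMyc+lateCD23lo. These sums carry no p, since they were formed over genes chosen with earlier results known.

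**Figure D2:**
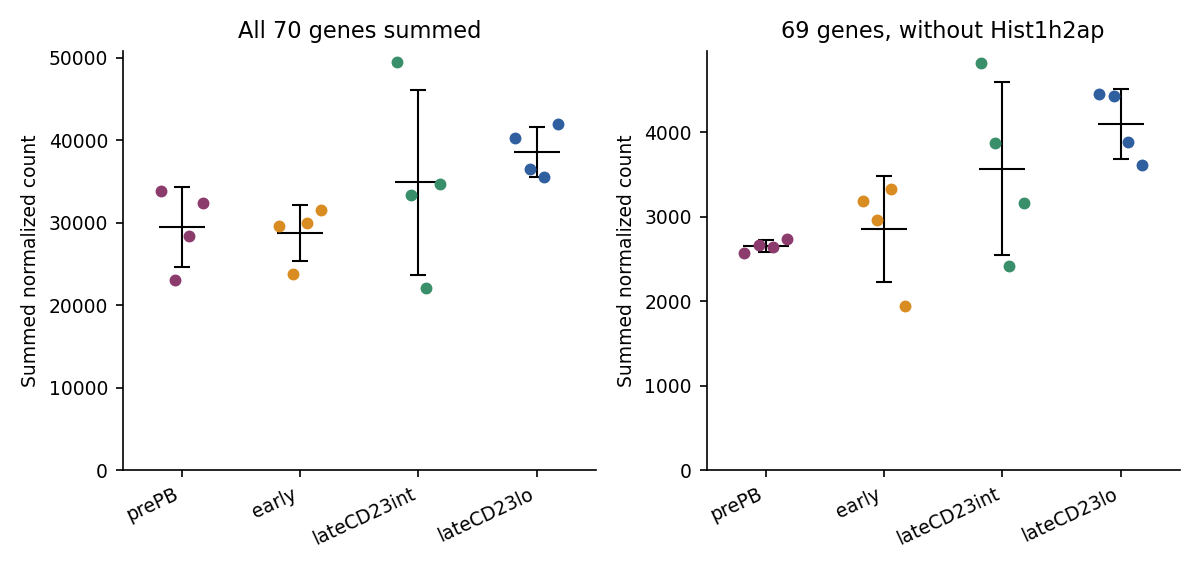
Summed normalized count (linear axis from 0) of all 70 histone genes (left) and of the 69 genes other than Hist1h2ap (right) in each library, one point per library, with the mean and SD of 4 libraries in black. In both panels the 4 cMyc+lateCD23lo points lie above all cMyc+prePB and cMyc+early points.

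By class, cMyc+lateCD23lo separated from cMyc+prePB and cMyc+early in the H2A sum, which Hist1h2ap dominates, and in the H2B sum. The H2B genes summed to 408 to 735 in cMyc+prePB, 610.3 to 765 in cMyc+early, 582 to 941 in cMyc+lateCD23int and 914 to 1151 in cMyc+lateCD23lo, so that the last lay apart from the first pair. H2A without Hist1h2ap overlapped in all 6 comparisons, with 726 to 951 in cMyc+prePB and 903 to 1458 in cMyc+lateCD23lo. The H1, H3 and H4 sums also overlapped in all 6. H4 genes summed to 289 to 531 in cMyc+prePB and 508 to 799.6 in cMyc+lateCD23lo, and H3 genes, the lowest class, to 66.6 to 173 and 113 to 229. By genomic cluster, the 3 Hist3 genes on chromosome 11 lay higher in cMyc+lateCD23lo (259 to 359) than in cMyc+prePB (133 to 195), and the 10 Hist2 genes on chromosome 3 overlapped, at 306 to 622 and 263 to 332. Genes whose model ends within 100 bases of the hairpin and genes whose model runs further both separated cMyc+lateCD23lo from cMyc+prePB and from cMyc+early, the former with Hist1h2ap among them. The further-running ones summed to 1443.5 to 1596 in cMyc+lateCD23lo, 767 to 1160 in cMyc+prePB and 740 to 1348 in cMyc+early.

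No single histone gene passed the test in any comparison. In limma's moderated F test over the 4 subpopulations, 0 of 44 members had a Benjamini-Hochberg adjusted p under 0.05, against 0.408% of the 12505 genes tested. At an unadjusted p under 0.05 it was also 0 of 44, against 10.2% of all genes. edgeR and DESeq2, run on the recovered reads, called 0 of 44 as well, and 0 members had an unadjusted p under 0.05 by either. The smallest limma F test p-values belonged to Hist3h2ba (adjusted p = 0.494), Hist2h4 (0.502), Hist1h1c (0.529), Hist2h2bb (0.587) and Hist1h3i (0.599). The spread between libraries was wide for low genes. The within-subpopulation SD on the log2 scale had a median of 1.60 over the 24 members with a mean of 10 to 50, against 2.00 over all 2696 genes of that range. It was 0.71 over the 19 members between 50 and 1000, against 0.69 over 6158 genes, and 0.31 for Hist1h2ap.

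The difference between cMyc+early and cMyc+lateCD23lo cells, the ends of the CD23 gates, was towards lower histone values in cMyc+early. Of 44 members, 34 had a lower fitted value in cMyc+early (77.3%, against 50.4% of all genes tested), and the median log2 fold change was -0.55, against -0.01 over all genes. Over the 13 tested members with at least 80% unique words the median was -0.95. By limma, 0 of 44 passed at an adjusted p under 0.05 (0.28% of all genes did), and 3 of 44 had an unadjusted p under 0.05, a share of 6.82% beside 10.3% of all genes. edgeR gave 3 and DESeq2 5 at that unadjusted level, and 0 after adjustment. The 4 values of one group lay wholly outside those of the other for 5 members, all lower in cMyc+early, while 6.23% of all tested genes were separated in either direction.
Hist1h2ap was one of these. Its counts were 26414, 20854, 26602 and 29637 in cMyc+early and 35781, 32121, 31671 and 38328 in cMyc+lateCD23lo. All 4 cMyc+early libraries were below the lowest cMyc+lateCD23lo library. The log2 fold change was -0.42 ± 0.20 (SE), with a 95% confidence interval from -0.84 to -0.0034 (limma, adjusted p = 0.48).
Hist2h4, an H4 gene with only unique words, had 0, 12.4, 0 and 1.81 normalized counts in cMyc+early and 102, 7.49, 15.3 and 23.5 in cMyc+lateCD23lo. One library of each group was far above its 3 others, and the groups overlapped. Its log2 fold change was -3.30 ± 1.22 (SE) with a limma adjusted p of 0.351.
Hist1h3i, an H3 gene with 21.7% unique words, had 0, 2.65, 0 and 2.71 in cMyc+early, at most 3 reads in every library, and 23.7, 3.74, 25.5 and 22.4 in cMyc+lateCD23lo. The groups did not overlap, with a log2 fold change of -3.10 ± 1.32 (SE) and a limma adjusted p of 0.423. Its fitted value depends on the pseudocount, as does that of Hist2h4, because cMyc+early sits near 0.
The other separated members were Hist1h2bm (H2B) and, named after their values were seen, Hist1h4d (H4) and Hist1h2bp (H2B). Hist1h4d had 20.96, 57.5, 43.3 and 41.5 in cMyc+early and 74.4, 76.7, 81.6 and 71.4 in cMyc+lateCD23lo, a log2 fold change of -0.96 ± 0.56 (SE).

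The comparison of cMyc+prePB with cMyc+lateCD23lo cells shares its cMyc+lateCD23lo libraries with the preceding one. Of 44 members, 33 had a lower fitted value in cMyc+prePB (75%, against 50.5% of all genes), with a median log2 fold change of -0.50 against -0.01, and of -0.90 over the 13 members with at least 80% unique words. By limma, 0 of 44 passed at an adjusted p under 0.05 (0.264% of all genes) and 4 of 44 had an unadjusted p under 0.05, a share of 9.09% beside 12.7% of all genes. edgeR gave 4 and DESeq2 5 at that level, and 0 after adjustment. The 2 groups did not overlap for 7 members, 6 of them lower in cMyc+prePB, against 6.56% of all genes.
Hist3h2ba, an H2B gene of the small Hist3 cluster, had 54.8, 12.4, 22.5 and 2.71 in cMyc+prePB and 67.9, 108, 69.3 and 78.5 in cMyc+lateCD23lo. All cMyc+prePB values were below the lowest of the other group. The log2 fold change was -2.33 ± 0.80 (SE), with a 95% confidence interval from -4.01 to -0.66 and a limma adjusted p of 0.244.
Hist1h1c, a linker histone gene, had 0, 39.7, 6.31 and 3.61 and 36.6, 128, 45.9 and 29.6. The second library of each group stood far above the others, and the second cMyc+prePB library overlapped cMyc+lateCD23lo. Its log2 fold change was -3.08 ± 1.14 (SE), with a limma adjusted p of 0.264.
Hist1h2bc, an H2B gene with a spliced 2-exon model, had 59.1, 101, 126 and 178 and 262, 188, 218 and 227, without overlap. The log2 fold change was -1.04 ± 0.43 (SE), with a limma adjusted p of 0.325.
Hist1h2bm had 60.2, 52.9, 88.4 and 106 and 111, 116, 211 and 193, again without overlap, and a log2 fold change of -1.02 ± 0.49 (SE). Hist1h2ap was lower in every cMyc+prePB library than in every cMyc+lateCD23lo library, with a log2 fold change of -0.38 ± 0.20 (SE) and a 95% confidence interval from -0.80 to 0.04.
Hist1h4d and Hist3h2a were the other members separated in that direction. Hist1h3e, an H3 gene, was the 1 separated in the other, with 24.7, 14.1, 13.5 and 14.4 in cMyc+prePB and 0, 0, 5.10 and 12.2 in cMyc+lateCD23lo and a log2 fold change of 2.52 ± 1.21 (SE). It too was named after its values were seen.

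Between cMyc+early and cMyc+lateCD23int cells, 33 of 44 members had a lower fitted value in cMyc+early (75%, against 53.0% of all genes), with a median of -0.47 against -0.03. By limma, 0 of 44 passed (0.008% of all genes) and 2 had an unadjusted p under 0.05, a share of 4.55% beside 3.71%. edgeR gave 1 and DESeq2 2 at the unadjusted level.
Hist2h2bb, an H2B gene that overlaps Gm42743 on the same strand, had 1.05, 0, 0.962 and 7.22 in cMyc+early and 40.8, 39.7, 9.34 and 3.72 in cMyc+lateCD23int. The first 2 cMyc+lateCD23int libraries were high and the other 2 near the cMyc+early range, with a log2 fold change of -2.82 ± 1.09 (SE) and a limma adjusted p of 0.9999.
Hist2h4 had 3.98, 7.12, 70.6 and 18.6 in cMyc+lateCD23int and a log2 fold change of -2.64 ± 1.22 (SE). Only Hist1h2bp was separated, at 5.24, 4.42, 28.9 and 30.7 in cMyc+early and 46.8, 68.2, 31.1 and 31.6 in cMyc+lateCD23int, when 2.48% of all genes were.

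Between cMyc+lateCD23int and cMyc+lateCD23lo cells, members were divided, with 24 of 44 lower in cMyc+lateCD23int (54.5%, against 48.7% of all genes) and a median of -0.04 against 0.02. Without the fourth cMyc+lateCD23lo library the median was -0.34, and over the 13 members with at least 80% unique words it was -0.66. By limma, 0 of 44 passed (0.008% of all genes), and 0 had an unadjusted p under 0.05, beside 6.28% of all genes. edgeR and DESeq2 each gave 1 at the unadjusted level and 0 after adjustment.
Hist2h2be, an H2B gene with a long 3′ untranslated stretch and only unique words, was the 1 member separated, against 3.77% of all genes. It had 88.6, 21.4, 85.1 and 79.0 in cMyc+lateCD23int and 176, 123, 149.9 and 123 in cMyc+lateCD23lo, a log2 fold change of -1.22 ± 0.88 (SE).

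Between cMyc+prePB and cMyc+early cells, 19 of 44 members were lower in cMyc+prePB (43.2%, against 48.8% of all genes), with a median of 0.05 against 0.01. By limma, 0 of 44 passed (0.192% of all genes) and 2 had an unadjusted p under 0.05, a share of 4.55% beside 8.58%. edgeR and DESeq2 each gave 1 at the unadjusted level.
The genes were Hist1h1c, with 12.6, 52.2, 28.9 and 65.9 in cMyc+early and a log2 fold change of -2.51 ± 1.14 (SE), and Hist3h2ba, with 61.8, 58.4, 74.1 and 32.5 in cMyc+early and a log2 fold change of -1.79 ± 0.80 (SE). Both means were smaller in cMyc+prePB, and the groups overlapped. Only Hist1h3e was separated, with 10.5, 7.96, 0.962 and 9.03 in cMyc+early, against 4.23% of all genes.

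Between cMyc+prePB and cMyc+lateCD23int cells, 32 of 44 were lower in cMyc+prePB (72.7%, against 51.8% of all genes), with a median of -0.35 against -0.02. By limma, 0 of 44 passed (0.144% of all genes), and 0 had an unadjusted p under 0.05, beside 8.77% of all genes. edgeR gave 0 and DESeq2 1 at that level. No member was separated, with 0 of 44 against 5.21% of all genes. The comparisons share libraries, so that their counts are not independent of each other.

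**Figure D3:**
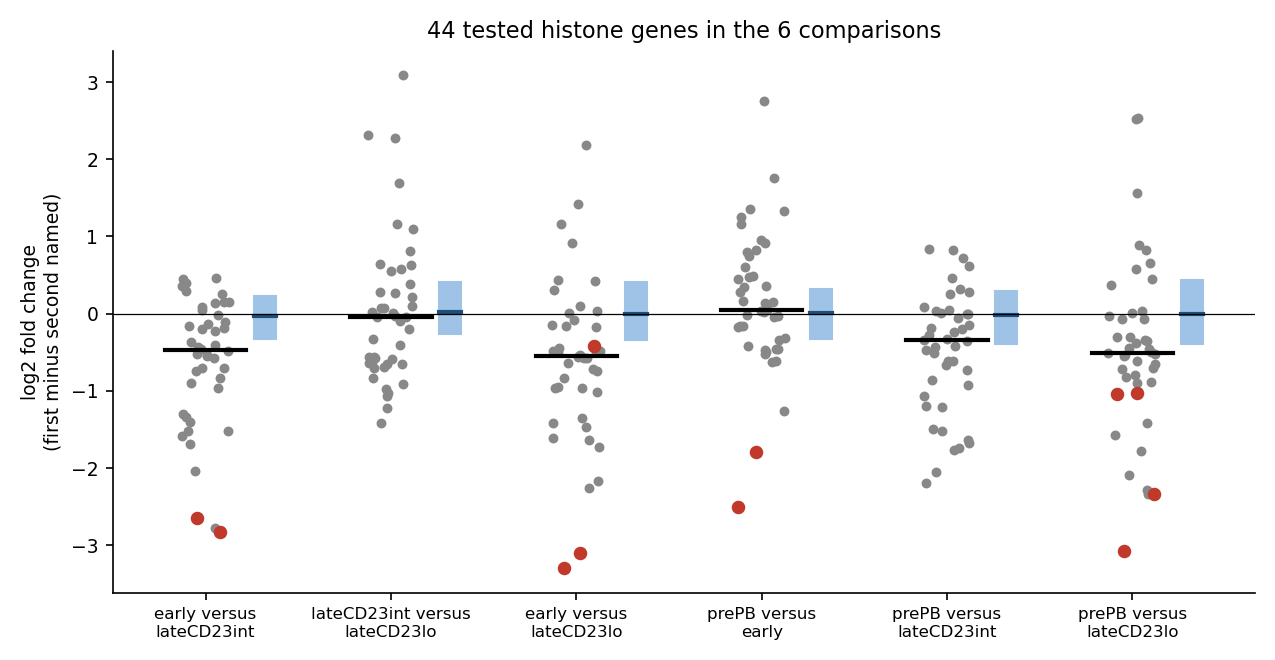
Log2 fold change on the log2(normalized count + 1) scale of the 44 tested histone genes in the 6 comparisons, first named subpopulation minus second, with an unadjusted limma p under 0.05 in red. Black lines are medians over the 44 genes, and the blue boxes span the quartiles of all 12505 genes with their median. The black line lies at -0.55 for early versus lateCD23lo, -0.50 for prePB versus lateCD23lo and -0.04 for lateCD23int versus lateCD23lo.

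**Figure D4:**
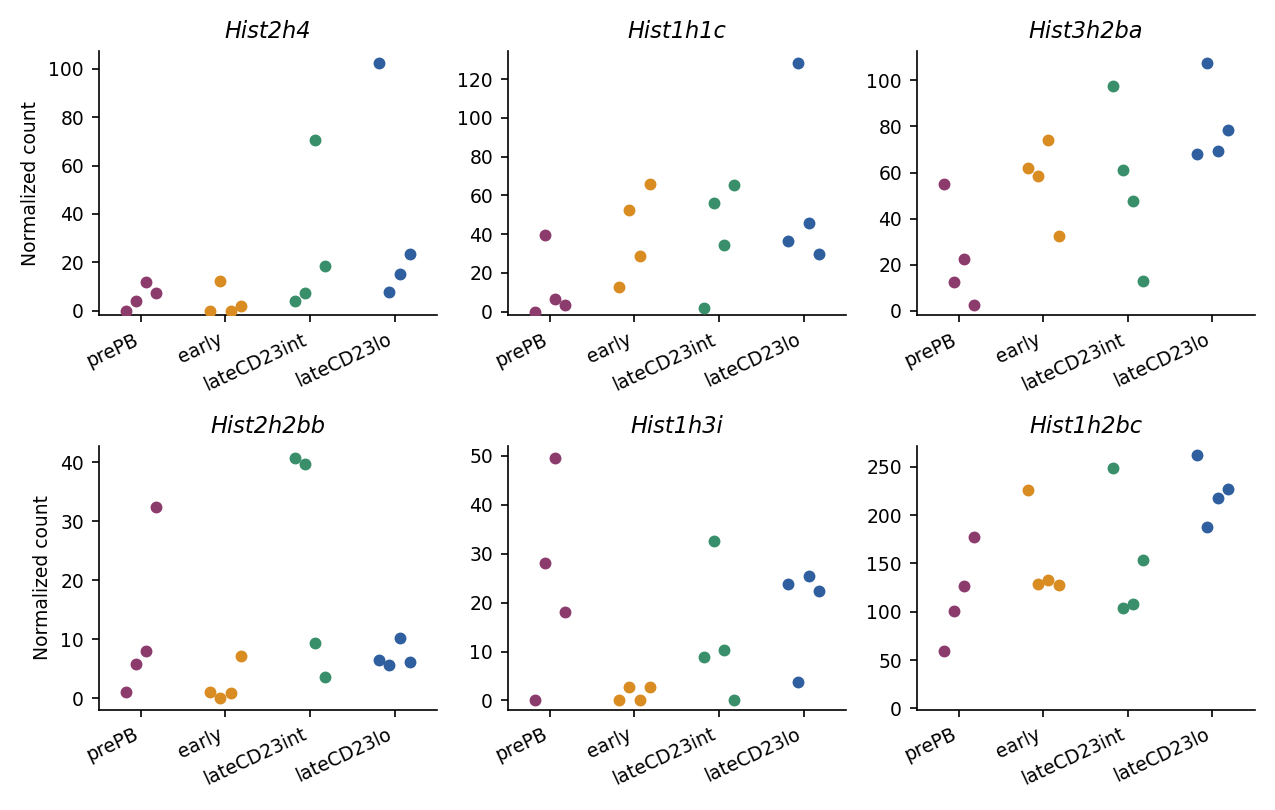
Normalized count (linear axes) in each library of 6 histone genes with an unadjusted limma p under 0.05 in at least 1 comparison, one point per library and 4 libraries per subpopulation. Single libraries stand far above the others of their group, as in Hist2h4 (102 in the first cMyc+lateCD23lo library) and Hist1h1c (128 in the second).

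The members with the highest means, after Hist1h2ap, overlapped between subpopulations in most comparisons. Hist1h1b, a linker histone gene with only unique words, had 832, 491, 246 and 344 in the cMyc+prePB libraries, 847, 411, 692 and 162 in the cMyc+early ones, 1046, 745, 330.1 and 495 in cMyc+lateCD23int and 954, 1007, 748 and 556 in cMyc+lateCD23lo. Its groups overlapped in every comparison, with means of 478 ± 256 in cMyc+prePB and 816 ± 206 in cMyc+lateCD23lo (SD, n = 4). Hist1h4i, the leading H4 gene, had means of 255 ± 80.9, 266 ± 145, 336 ± 82.9 and 358 ± 156 in cMyc+prePB, cMyc+early, cMyc+lateCD23int and cMyc+lateCD23lo. In the same order, Hist1h2ae had 233 ± 28.7, 242 ± 69.9, 346 ± 132 and 336 ± 83.5. For both, the ranges overlapped in all 6 comparisons.
Hist3h2a, an H2A gene that overlaps Trim17 on the same strand, had 139.7, 137, 166 and 131 in cMyc+prePB and 191, 252, 208 and 258 in cMyc+lateCD23lo, without overlap (log2 fold change -0.65 ± 0.41, SE). Hist1h2an, an H2A gene with 15.4% unique words and a gene on its opposite strand, split into a high and a low pair within cMyc+lateCD23int (363, 325, 71.6 and 115) and within cMyc+lateCD23lo (349, 336, 90.7 and 102). The H2B gene Hist1h2bj had 101 ± 36.8 in cMyc+prePB and 128 ± 49.5 in cMyc+lateCD23lo, with overlap.

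**Figure D5:**
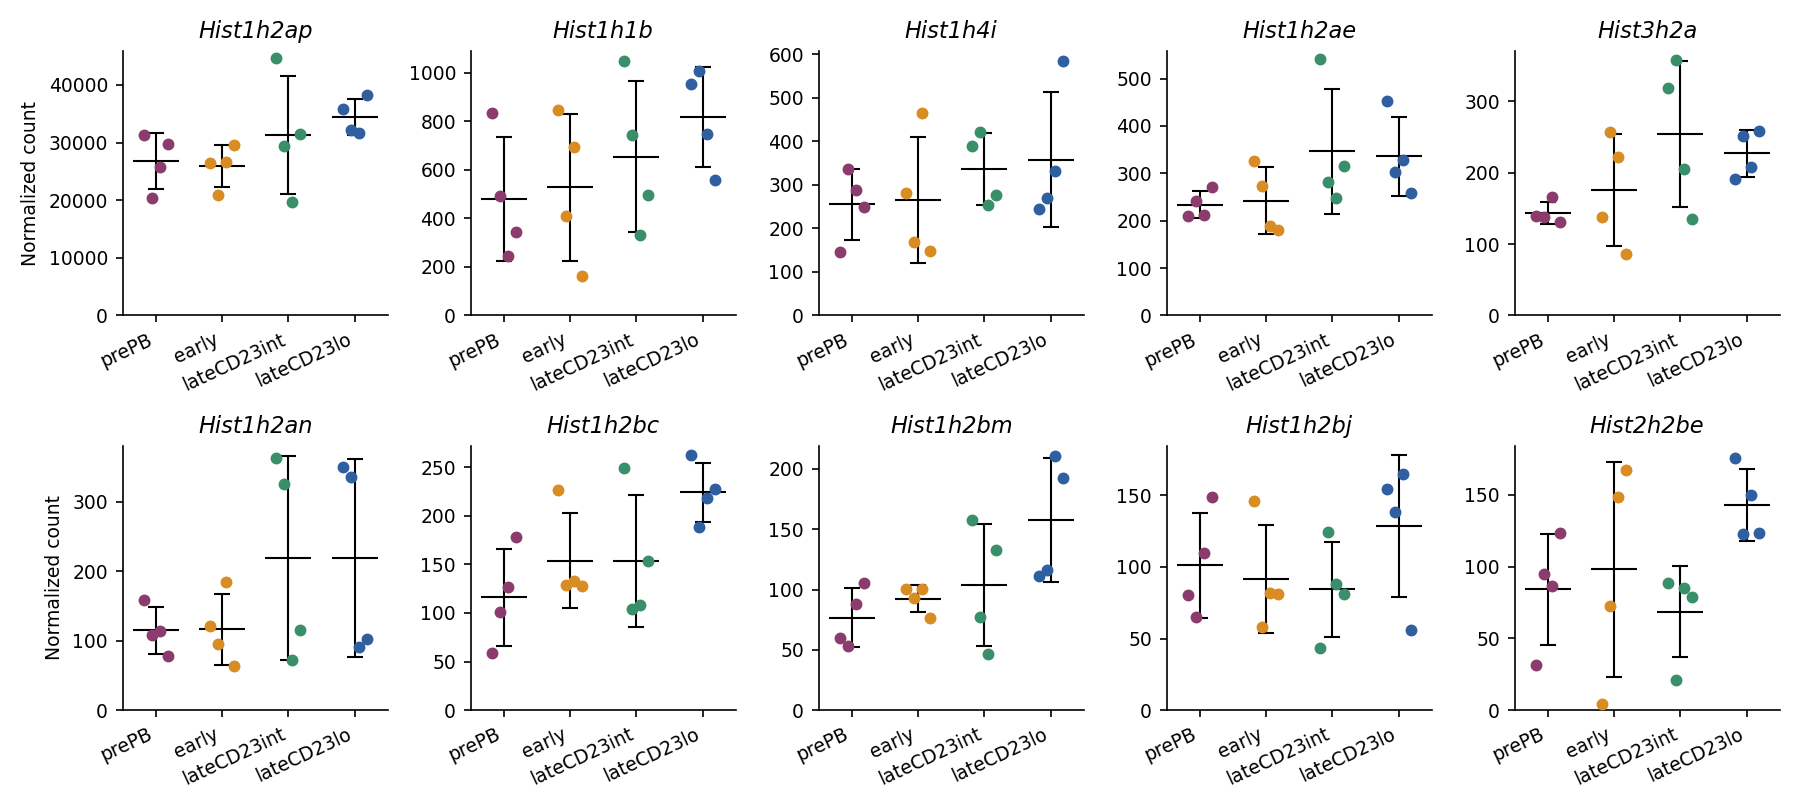
Normalized count (linear axes from 0) of the 10 histone genes with the highest mean over the 16 libraries, one point per library, with the mean and SD of 4 libraries in black. Hist1h2ap has its own scale, and in Hist1h2bc and Hist1h2bm all cMyc+lateCD23lo points lie above all cMyc+prePB points.

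Members followed each other across libraries only loosely. Over the 20 members with a mean of at least 50, the median correlation of log2 deviations from the subpopulation means was 0.13 over 190 pairs (range -0.53 to 0.73, 16 libraries), and -0.0035 over all pairs of 9809 genes at that level. The points share libraries and scaling, and pairs of members also share sequence.

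The genes that make and end histone mRNAs showed no call. Of 26 tested genes for histone transcription and 3′ processing, 0 passed in any of the 6 comparisons. Per comparison, 0.008% to 0.28% of all tested genes passed and 2.48% to 6.56% had groups without overlap. These shares stand beside the counts of this list and of the lists that follow. Slbp, which encodes the stem-loop binding protein, had 30189.7, 21082, 21328 and 17676 in the cMyc+prePB libraries, 29106, 21836, 23263 and 20189.8 in the cMyc+early ones and 31859, 32769, 34368 and 33802 in cMyc+lateCD23lo. The last lay above both others without overlap, with log2 fold changes of -0.58 ± 0.17 (SE) from cMyc+prePB (limma adjusted p = 0.166) and -0.51 ± 0.17 from cMyc+early (limma adjusted p = 0.307). Npat, the cluster activator, averaged 1091 ± 145 in cMyc+prePB and 1592 ± 294 in cMyc+early, a log2 fold change of -0.54 ± 0.20 (SE) without overlap (limma adjusted p = 0.446). The processing genes Casp8ap2 (FLASH), Lsm10 and Lsm11 had no unadjusted p under 0.05, with overall means of 2933, 1169 and 126. Zfp473, a zinc finger partner of the processing machinery, was low, with 1.07, 24.0, 0.902 and 0 in cMyc+prePB and 84.6, 51.9, 105 and 49.3 in cMyc+lateCD23int, without overlap. Its log2 fold change of -4.47 ± 1.70 (SE, limma adjusted p = 0.454) depends on the pseudocount. Of the 9 histone mRNA decay genes, 0 passed, and Eri1, the exonuclease that trims the stem-loop, had an overall mean of 3057.

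Among 20 tested chaperones, which carry histones to DNA, 1 gene passed in 1 comparison. Asf1b, the proliferation-linked H3-H4 chaperone, had 12566, 12698, 13285 and 10670.0 in the cMyc+prePB libraries, 15898, 12166, 16279 and 13101 in the cMyc+early ones, 13598, 14917, 12419 and 14682 in cMyc+lateCD23int and 19169, 18654, 20736 and 17849 in cMyc+lateCD23lo. All cMyc+lateCD23lo libraries were above all 12 others. The test was passed between cMyc+prePB and cMyc+lateCD23lo, with a log2 fold change of -0.64 ± 0.13 (SE) and a limma adjusted p of 0.0344. Of all tested genes, 0.264% passed in that comparison. The call was lost in 12 of 28 alternatives, with adjusted p-values from 0.000479 to 0.18. From cMyc+early to cMyc+lateCD23lo the difference was -0.42 ± 0.13 on the log2 scale (limma adjusted p = 0.236). Nasp, a linker and H3-H4 chaperone, had log2 fold changes of -0.45 ± 0.15 (SE) between cMyc+early and cMyc+lateCD23lo and -0.34 ± 0.15 between cMyc+lateCD23int and cMyc+lateCD23lo. For Chaf1a and Chaf1b of the CAF-1 complex, the unadjusted p under 0.05 was reached once, by Chaf1b, with -0.50 ± 0.22 between cMyc+prePB and cMyc+lateCD23int.

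Replication-independent histone genes, whose mRNAs are mostly polyadenylated (H2afx carries the hairpin), had 0 of 11 tested genes called in the 6 comparisons. Between cMyc+early and cMyc+lateCD23lo, 10 of 11 had a lower fitted value (50.4% of all tested genes did), with a median of -0.41 against -0.01. Between cMyc+prePB and cMyc+lateCD23lo it was 9 of 11 (50.5% of all tested genes), with a median of -0.34 against -0.01. The largest counts were those of H3f3b, H2afz (an H2A.Z gene) and H3f3a, with means of 104841, 64207 and 15212. H2afz had a log2 fold change of -0.60 ± 0.18 (SE) between cMyc+early and cMyc+lateCD23lo without overlap (limma adjusted p = 0.218), and H3f3b one of -0.41 ± 0.17. H1f0, the replacement linker histone, had 607, 1108, 774 and 871 in cMyc+prePB and 1045, 1677, 1570.0 and 1756 in cMyc+lateCD23lo, a log2 fold change of -0.85 ± 0.22 (SE) and a limma adjusted p of 0.122. H2afv, with -0.77 ± 0.25 in the same comparison, had an unadjusted p under 0.05 as well, unlike H2afx, H2afy, H1fx and Cenpa, which had none in any comparison. Values per kilobase were 36152 for H2afz and 35229 for H3f3b, below the 61454 of Hist1h2ap.

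Cell cycle lists stood beside these values as follows. Of 24 tested S phase genes, 20 had a lower fitted value in cMyc+early than in cMyc+lateCD23lo (median -0.23) and 15 in cMyc+prePB than in cMyc+lateCD23lo (median -0.16), with 0 called. Of 18 G2/M genes, 6 were lower in cMyc+early than in cMyc+lateCD23lo (median 0.11) and 16 in cMyc+prePB (median -0.31), again with 0 called. Over all tested genes, 50.4% were lower in cMyc+early and 50.5% in cMyc+prePB than in cMyc+lateCD23lo, and 0.28% and 0.264% were called. An unadjusted limma p under 0.05 was reached by 7 S phase and 1 G2/M genes for cMyc+early (10.3% of all genes). For cMyc+prePB it was 8 and 8 (12.7% of all genes). Between cMyc+prePB and cMyc+early, all 18 G2/M genes and 4 of 24 S phase genes were lower in cMyc+prePB (48.8% of all genes). Of these G2/M genes, 6 reached that level (8.58% of all genes). Other RNAs without a poly(A) tail, such as Rpph1 and Rn7sk, were at low levels, with 4 of 11 genes passing the filter and 0 called. Their sum was 153 to 310.2 in cMyc+prePB, 108 to 305 in cMyc+early, 198 to 329 in cMyc+lateCD23int and 277 to 347 in cMyc+lateCD23lo. The part of these RNAs in the histone values was not tested.

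Markers of other cells were also compared. T cell genes summed to 4579 to 7088 in cMyc+prePB, 2195 to 3886 in cMyc+early, 4815 to 6623 in cMyc+lateCD23int and 4092 to 5932 in cMyc+lateCD23lo, of which Lck made up 2157 to 6839, while Cd3e never exceeded 30.7. Myeloid genes summed to 203 to 351 in cMyc+early and 753 to 1445 in cMyc+lateCD23lo, 282 to 797 in cMyc+prePB and 258 to 825 in cMyc+lateCD23int. Plasma cell genes, mostly Jchain, summed to 23488 to 30149 in cMyc+early and 56149 to 90119 in cMyc+lateCD23lo, with 37257 to 111293 in cMyc+prePB and 31588 to 59105 in cMyc+lateCD23int. Follicular B cell genes went the other way, at 1257 to 2669 in cMyc+early and 247 to 719.9 in cMyc+lateCD23lo, and so did stroma genes, nearly all Pecam1, at 942 to 1329 and 489 to 653. The erythroid genes were highest in the fourth libraries of cMyc+prePB (3131), cMyc+early (2428) and cMyc+lateCD23int (4956), with 170.4 to 1510 in the other 13. The fourth cMyc+early library also had the lowest summed count without Hist1h2ap. The part of these cells in the histone values was not tested.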

How the data were processed

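RNA of 16 libraries, 4 from each of 4 sorted subpopulations, was sequenced. The deposited signal is a gene count divided by 1 size factor per library by the authors. In each library 100% of values were whole multiples of 1 read, within 0.001, which gave 19812080 to 25795815 recovered reads. The submitters' processing notes name Trimmomatic 0.36, STAR 2.5.2a, RSEM 1.2.31, DESeq2 1.20.0, R 3.5.1 and GRCm38, without roles. The annotation release, and how reads shared by histone copies were assigned, are not given in the sources used here.

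Normalized counts plus a pseudocount of 1 were log2-transformed for the 12505 genes averaging 10 or more, and limma 3.58.1 (R 4.3.3) fitted 1 trended model to the 16 libraries. All p-values were adjusted over these genes (Benjamini-Hochberg). Changes of low genes are understated by this scale. edgeR 4.0.16 and DESeq2 1.42.0 on the recovered reads, other pseudocounts, filters, scalings and a replicate block, and each library left out in turn, were alternatives. An alternative with H1f0 among the members was chosen after seeing the data. The code was tested on simulated data. The genes and lists were chosen with earlier results of these data known.

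Genes named are the 10 members with the highest mean, the 5 with the smallest F test p, up to 3 per direction and comparison with the largest log2 fold change at an unadjusted p under 0.05, and genes of the supply, chaperone and replication-independent histone lists. Any other is said to be named after its values were seen. Coordinates, lengths and 75-base words came from GENCODE vM21 (GRCm38), in which 68 members matched by identifier and 2 by symbol. A floor of 3 reads covers counting error only.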

Additional observations from a re-analysis of the deposited data

Results flagged for a closer look

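In 8 of 68 groups of 4 libraries, examined for 15 named members and 2 sums over members, a single library lay far outside the others. The cut used flags about 1 in 20 such groups when values are normally distributed. Counts near 0, as those of Hist2h4 and Hist2h2bb in cMyc+early, are not, and some members were named for their fold change. The 8 of 68 therefore cannot be set against that rate. Hist1h2bc was 226 in the first cMyc+early library, with 128 to 133 in the others. Hist2h2be was 21.4 in the second cMyc+lateCD23int library, with 79.0 to 88.6 in the others. Hist2h4 was 12.4 in the second cMyc+early library, with 0 to 1.81 in the others, and 102 in the first cMyc+lateCD23lo library, with 7.49 to 23.5 in the others. Hist1h1c was 39.7 in the second cMyc+prePB library, with 0 to 6.31 in the others, and 128 in the second cMyc+lateCD23lo library, with 29.6 to 45.9 in the others. Hist2h2bb was 7.22 in the fourth cMyc+early library, with 0 to 1.05 in the others. Hist1h3i was 3.74 in the second cMyc+lateCD23lo library, with 22.4 to 25.5 in the others.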

How the results depend on the processing

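The count of histone genes called was 0 in each of the 6 comparisons under all 28 alternative fits and in the F test under the 27 that apply to it, among members with at least 80% unique words, and with H1f0 added, an alternative chosen after the data were seen. The smallest adjusted p over members was 0.0740, for Hist3h2ba between cMyc+prePB and cMyc+lateCD23lo without the first cMyc+prePB library. The 7 members named for a log2 fold change at an unadjusted p under 0.05 kept the direction of that comparison in every alternative that tested them. Median log2 fold changes moved by more than the SD between libraries as follows. With a mean of at least 50, early versus lateCD23int went to -0.21. With at least 80% unique words (13 genes), lateCD23int versus lateCD23lo went to -0.66, early versus lateCD23lo to -0.95, prePB versus early to 0.34 and prePB versus lateCD23lo to -0.90, while the difference in log2 summed count of prePB versus lateCD23lo went to -0.87. The cause was not tested. With 1 library left out at a time, the median of lateCD23int versus lateCD23lo ranged from -0.34, without the fourth cMyc+lateCD23lo library, to 0.10, without the third cMyc+lateCD23int library. Without the latter, the difference in log2 summed count between these subpopulations was 0.0022, and without the first cMyc+lateCD23int library that of early versus lateCD23int was -0.04. Asf1b lost its call between cMyc+prePB and cMyc+lateCD23lo in 12 of 28 alternatives, among them each that left out a cMyc+lateCD23lo library, and its log2 fold change stayed between -0.68 and -0.51.

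With the replicate block, 0 members were called in every test by limma and by edgeR, and the number with an unadjusted p under 0.05 in limma's F test went from 0 to 2. The labels do not say that the numbers pair libraries. Correlations of deviations between 24 same-numbered pairs ranged from -0.13 to 0.17, with 5 over 0.1. Pairs with different numbers ranged from -0.19 to 0.20. Low members, with a median SD of 1.60 log2 units within a subpopulation, limit what 4 libraries can show.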
